A study of Mus musculus with 81 samples.

Results

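The Ifitm genes encode small membrane proteins of the interferon-induced transmembrane family, and the members described here are Ifitm1, Ifitm2, Ifitm3 and Ifitm6. They were taken by their symbols, as 4 of the 7 annotated Ifitm symbols and of the 55536 genes of the longest gene list in the files. Earlier results of these data were known when they were chosen, and the symbols left out are Ifitm5, Ifitm7 and Ifitm10. RNA-seq counts of 81 mouse libraries were available in 5 experiments, 79 of them in 27 groups of 3 libraries each, or 2 in the day 8 cKO groups. WT stands for H3f3a fl/fl H3f3b fl/fl mice without Cre. cKO stands for H3f3a fl/fl:H3f3b fl/fl mice that also carry LysM-Cre on both copies of its locus, Lyz2. The design is meant to delete both genes of the histone variant H3.3 in macrophages and granulocytes. Outside the antibody experiment most H3f3b transcript remained in the cKO groups, as given below. Lyz2 itself is lost in every cKO group. The study's methods give a C57BL/6 background for the mice. They list the Sting KO and Mavs KO strains, which were crossed into lines described below, as of mixed background. A backcross is stated for the Mavs KO strain alone. Bone marrow-derived macrophages (BMDMs) were grown in L929-conditioned medium from the marrow of young adult mice of both sexes.

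The first experiment was a time course of both genotypes, sampled on culture days 3, 5 and 7. Its day 3 and day 5 cells are labelled BMDM progenitors, and its day 7 cells BMDMs. Where BMDMs are named as a whole below, the progenitor libraries are counted with them. The second experiment compared day 8 BMDMs left untreated or given IFNγ for 12 h. Peritoneal macrophages taken from the animals were compared in another. In the fourth, BMDMs were cultured from the start with an antibody that blocks IFNAR1, a receptor chain for type I interferon, with an isotype control antibody or with neither. The fifth held 3 sets of WT and cKO BMDMs, called sets 1, 2 and 3, and cKO lines that also lacked Sting, Mavs or Irf7 (H3.3cKO:StingKO, H3.3cKO:MavsKO and H3.3cKO:Irf7KO, called double KO below). The double KO cells carry every allele of the cKO cells. The labels do not say which set was grown with which double KO line. Each double KO line was a single group of 3 libraries, so that its genotype and its culture cannot be told apart. The tests of these lines use the spread within groups, not that between cultures.

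IFITM proteins sit in the plasma membrane or in endosomal membranes and hinder the fusion of enveloped viruses with the cell. IFITM3 is found mainly in late endosomes and lysosomes and is best known for limiting influenza virus, IFITM2 shares that location, and IFITM1 is found more at the cell surface. Ifitm6 is a less studied member found in rodents. Type I interferon and IFNγ act through JAK kinases and STAT factors on short promoter elements, the ISRE and the GAS.

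All 4 members are protein-coding genes in a single stretch of 63.1 kb on chromosome 7 (mm10, GENCODE M21). Ifitm2 (ENSMUSG00000060591) lies at 140954837 to 140955987 on the minus strand, and Ifitm1 (ENSMUSG00000025491) at 140967221 to 140969825 on the plus strand. Ifitm3 (ENSMUSG00000025492) lies at 141009586 to 141010770 and Ifitm6 (ENSMUSG00000059108) at 141015699 to 141017924, both on the minus strand. The 30-base stretches of Ifitm3, Ifitm2 and Ifitm6 below are shown because they hold the interferon-type motifs found within the 300-base windows of the RefSeq table. These windows (GRCm38.p6) run from 250 bases before to 50 bases after each start, and all 4 members were matched in the table by symbol. Capitals mark an ISRE-type motif (GAAA, any 2 bases, then GAAA again) in Ifitm3 and Ifitm2, and TTCNNNGAA, a GAS-type motif, in Ifitm6.
Ifitm3 (chr7:141010714-141010743, minus strand): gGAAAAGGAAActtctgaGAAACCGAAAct
Ifitm2 (chr7:140955988-140956017, minus strand): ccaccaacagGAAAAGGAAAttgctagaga
Ifitm6 (chr7:141016883-141016912, minus strand): ccatatgaacTTCCTTGAAacaagagcttc
Ifitm1 (chr7:140968046-140968075, plus strand): ctaatggtaacttgaaaccactatttgccc
Both strands were searched. Ifitm3 held 2 ISRE-type matches just after its start, at bases 3 to 12 and 20 to 29, and a GAS-type match at bases 14 to 22 that overlaps the later one. Ifitm2 held 1 ISRE-type match, from base -46 to base -37, and Ifitm6 held 1 GAS-type match, from base -10 to base -2. No match to either motif was found in the window of Ifitm1, for which the 30 bases before the start are printed. The starts in this table lie inside the GENCODE bounds given above. For Ifitm1 the start follows base 140968075, where the gene begins at 140967221. For Ifitm6 it lies within 141016883 to 141016912, where the gene ends at 141017924. The outer GENCODE starts of Ifitm1 and Ifitm6 were therefore not searched. Of 32851 windows in the table, 3.44% held the ISRE-type motif and 8.3% the GAS-type motif. A match of letters is a description of the sequence and was not tested as a binding site.

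Sequencing depth ranged from 3614967 to 45581528 counts on genes per library. H3f3a stood at 6.95 to 27.3% of its WT mean in the cKO groups. H3f3b, whose deletion varies between cultures, stood at 75 to 89.5% of WT in the cKO groups outside the antibody experiment and at 11.5 to 13.3% within it. Lyz2 was at most 0.271% of WT in every cKO group. All 8 macrophage markers were detected in every library, up to 8 of the 10 neutrophil, 3 of the 6 monocyte, 4 of the 6 dendritic cell and 2 of the 6 stromal markers were at 0 in a library, and the peritoneal macrophage markers summed to 9193 to 10297 CPM in WT peritoneal libraries against at most 35.2 CPM in any BMDM library. In the Sting double KO cells Tmem173, which encodes Sting, was at 6.1, 5.01 and 5.44 CPM against 68.2 to 91.6 CPM in the cKO sets. Mavs transcript was 37.5, 37.9 and 37.2 CPM in the Mavs double KO libraries, within the 36.0 to 51.6 CPM of the cKO sets, so that the count does not check that deletion. Irf7 read 109, 112 and 98.3 CPM in the Irf7 double KO libraries, below every cKO set library but within the range of the WT sets, 36.6 to 155 CPM. One library stood apart from the others, replicate 1 of cKO day 8 with IFNγ, with the fewest counts of its experiment. Its scaling factor was 0.46 where the other 9 placed libraries had 0.891 to 1.25, and 57.06% of its reads were unmapped. The values of the members that rest on it are given with and without it. In bulk samples, fewer cells of a type and less RNA per cell cannot be told apart.

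Levels below are given as CPM, the read count of a gene relative to the total of its library, after scaling of the libraries by the trimmed mean of M-values, and they are compared between genes only as CPM per kb of exon. Each adjusted p comes from the quasi-likelihood test of edgeR, corrected by Benjamini-Hochberg across every gene of the experiment that passed the filter. A gene is called at an adjusted p under 0.05. SE is the standard error of the log2 fold change, calculated back from that test. It is the absolute log2 fold change divided by the square root of the test's F statistic. Values after ± are SD over the libraries of a group, 3 unless another n is given.

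Ifitm3 was the most abundant member per kb of exon in 79 of 79 placed libraries. It took 73.3 to 99.2% of the summed level of the 4 members, with a median of 91.3%. Its lowest level was 117 CPM per kb, in WT cells on day 3, and its highest 2225 CPM per kb, in cKO cells given IFNγ. That highest level and the highest share both came from the library that stood apart, at 1509 CPM of Ifitm3. Without that library the highest Ifitm3 level was 1458 CPM, in a cKO peritoneal library. The other members shifted places. Ifitm2 came second in 69 libraries, although 40.9% of its exon bases are shared with the readthrough gene Gm45717 on the same strand, and reads that fall on both were assigned to neither, so that its level may be understated. Ifitm6 came second in all 6 peritoneal libraries, at 82.6 to 152 CPM per kb, against 1.49 to 26.1 CPM per kb in the BMDM libraries. In the cultured cells Ifitm1 had the widest relative range of the 4, from 0.207 to 33.8 CPM per kb. The highest of these levels was in a cKO progenitor library of day 5. Ifitm1 was in last place in 57 of the 79 libraries. The remaining mouse genes of this name were at or near 0. Ifitm7 had at most 6 counts in any library, and Ifitm5 at most 1.15 CPM. Ifitm10 stayed at or below 1.21 CPM in BMDMs and reached 11.9 CPM in peritoneal macrophages.

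**Figure D1:**
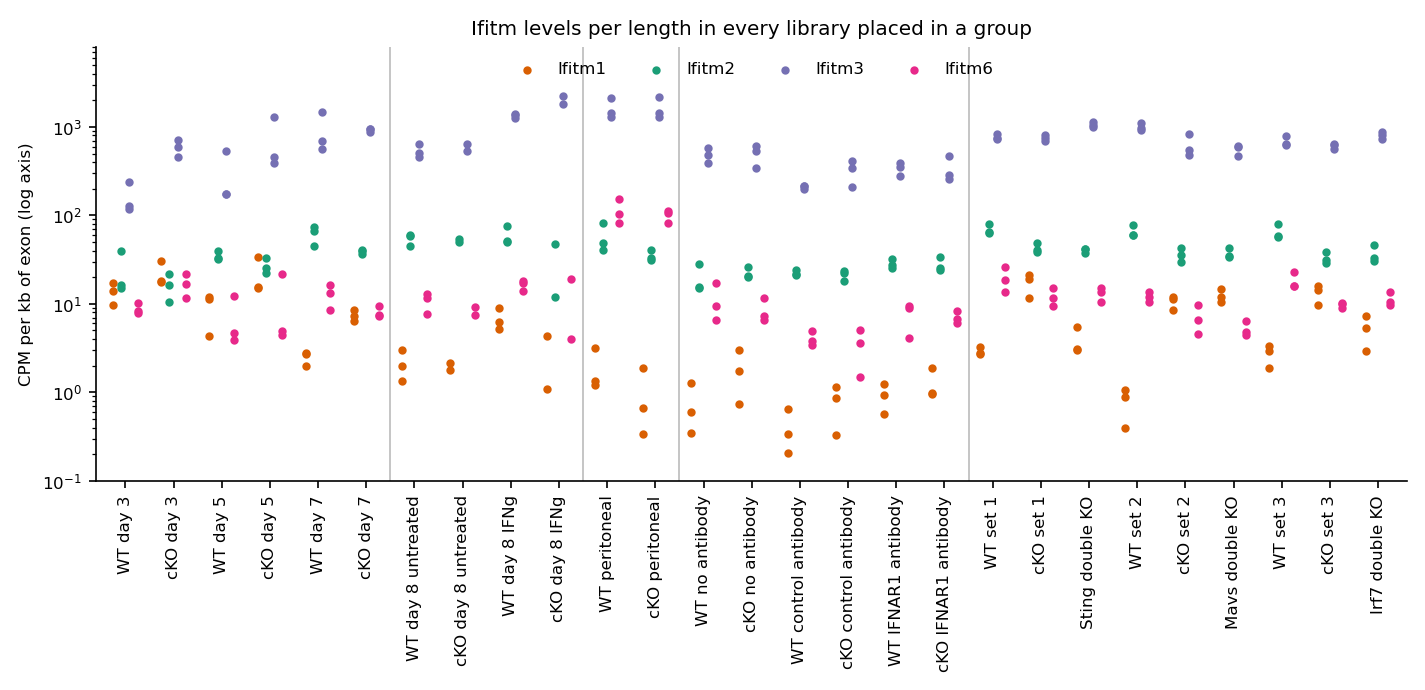
Levels of Ifitm1, Ifitm2, Ifitm3 and Ifitm6 in each of the 79 placed libraries, as CPM per kb of exon on a log axis, by group, with vertical lines between the 5 experiments. Ifitm3 lies above the other members in every group, Ifitm6 lies between Ifitm3 and Ifitm2 in the peritoneal groups, and Ifitm1 is high on days 3 and 5 and in the cKO sets.

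Ifitm3 was higher in cKO than in WT cells on day 3, the only call among the members in the time course. Its level was 163, 87 and 79.5 CPM in the WT libraries and 488, 310.3 and 399 CPM in the cKO libraries, so that every cKO library lay above every WT library. The difference was 3.64-fold (adjusted p = 0.0331 for a log2 fold change of 1.86, SE 0.51). It missed the threshold when any one of 4 of the 6 libraries was left out (adjusted p up to 0.128, without WT replicate 2 or 3 or cKO replicate 1 or 3), with a log2 fold change between 1.67 and 2.23 over the 6 fits. On day 3, 8.65% of all genes tested were called, and 1 of 4 members. On day 5 the Ifitm3 levels were 363, 118 and 119.7 CPM in WT and 870.2, 263 and 306 CPM in cKO cells. The groups overlapped through replicate 1, which was the highest of its group in both genotypes (adjusted p = 0.243 for a log2 fold change of 1.26, SE 0.50). With the replicate number as a block in the edgeR test, the day 5 difference passed the threshold (adjusted p = 0.0175). Over all genes, same-numbered libraries did not deviate together on day 5 (correlations from -0.023 to 0.167). By day 7 WT cells had reached 1009, 475 and 380.4 CPM, and cKO cells were at 648, 599 and 638 CPM, within the WT range. On that day the log2 fold change came to 0.02 (SE 0.50, adjusted p = 0.994). The change of the cKO effect from day 3 to day 7 was -1.85 (SE 0.71, adjusted p = 0.237) and missed the threshold. Same-numbered libraries deviated together on days 3 and 7, and with the replicate number as a block that change was -1.74 and passed (adjusted p = 0.0496).

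Ifitm1 was on average higher in cKO cells on all 3 days, and its groups did not overlap on any of them, but no day passed the threshold. The counts behind these levels were 42 to 625 per library. WT libraries had 10.6, 15.2 and 19 CPM on day 3, 4.72, 12.9 and 12.4 CPM on day 5 and 2.19, 3.08 and 3.0 CPM on day 7. In cKO libraries the levels were 33.4, 19.4 and 20.02, then 37, 16.9 and 16.6, then 8.06, 6.91 and 9.44 CPM. The log2 fold changes were 0.69 (SE 0.36, adjusted p = 0.275), 1.22 (SE 0.37, adjusted p = 0.0955) and 1.57 (SE 0.42, adjusted p = 0.0692) in order of day. The share of all genes called was 3.12% on day 5 and 1.82% on day 7, with 0 of 4 members on either day. At an unadjusted p under 0.05, 2 members (Ifitm1 and Ifitm3) passed on day 5 and 2 (Ifitm1 and Ifitm2) on day 7, and DESeq2 called 1 on each day, Ifitm1 in both cases. Markers of other cells differed by day and in part by genotype. The 10 neutrophil markers summed to 1871 to 3422 CPM in WT and 2956 to 4449 CPM in cKO libraries on day 3, and to 109.7 to 179.6 and 129 to 333 CPM on day 7. The 6 monocyte markers summed to 383 to 684 and 977 to 1339 CPM on day 3, without overlap, and to 109 to 384 and 225 to 313 CPM on day 7. The 6 stromal markers summed to 5.16 to 44.7 and 94.4 to 146 CPM on day 7. The 6 B cell markers summed to 13.4 to 14.3 CPM in WT and 27.4 to 57.4 CPM in cKO libraries on day 3, without overlap, and the 5 peritoneal macrophage markers to 8.04 to 10.8 and 17.8 to 19.7 CPM. On day 7 the macrophage markers were 5696 to 9274 CPM in WT and 4351 to 5398 CPM in cKO libraries, without overlap. Their part in the Ifitm levels was not tested.

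Ifitm2 and Ifitm6 were not called on any day. Ifitm2 was 48.9, 43.9 and 29.4 CPM in WT and 26, 24.1 and 26.9 CPM in cKO cells on day 7, when all cKO libraries were below all WT libraries (adjusted p = 0.295 for a log2 fold change of -0.66, SE 0.31). On days 3 and 5 its log2 fold changes were -0.53 (SE 0.33, adjusted p = 0.363) and -0.39 (SE 0.31, adjusted p = 0.633). Ifitm6 read 7.09, 7.51 and 9.27 CPM in WT and 19.9, 10.5 and 15 CPM in cKO cells on day 3, without overlap (adjusted p = 0.314 for a log2 fold change of 0.92, SE 0.51). Its value on day 5 hung on replicate 1, at 19.8 CPM in cKO cells where the other 2 libraries had 4.02 and 4.48 CPM, and on day 7 its log2 fold change was -0.64 (SE 0.52, adjusted p = 0.565).

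Along the culture, no member passed the threshold between neighbouring days in either genotype, where 2.91% (WT, day 5 against 3), 0.15% (WT, day 7 against 5), 4.89% (cKO, day 5 against 3) and 0.0501% (cKO, day 7 against 5) of all genes were called, with 0.0439% for the change of the cKO effect from day 3 to day 7. From day 5 to day 7 in WT cells, the log2 fold changes were 1.63 (SE 0.51, adjusted p = 0.135) for Ifitm3 and -1.87 (SE 0.42, adjusted p = 0.0766) for Ifitm1, and the days did not overlap for either gene. In cKO cells the corresponding values were 0.39 (SE 0.50, adjusted p = 0.997) for Ifitm3 and -1.52 (SE 0.37, adjusted p = 0.202) for Ifitm1. At an unadjusted p under 0.05, 0 members passed in WT cells from day 3 to day 5, Ifitm1, Ifitm2 and Ifitm3 from day 5 to day 7, Ifitm2 in cKO cells from day 3 to day 5, Ifitm1 from day 5 to day 7, and Ifitm3 and Ifitm6 in the change of the cKO effect. DESeq2 called Ifitm1 and Ifitm3 in WT cells and Ifitm1 in cKO cells from day 5 to day 7, and none in the other 3 comparisons. Without WT day 5 replicate 1, the library with the highest Ifitm3 level of that group, Ifitm1 and Ifitm3 both passed in WT cells (adjusted p = 0.00861 and 0.0273).

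**Figure D2:**
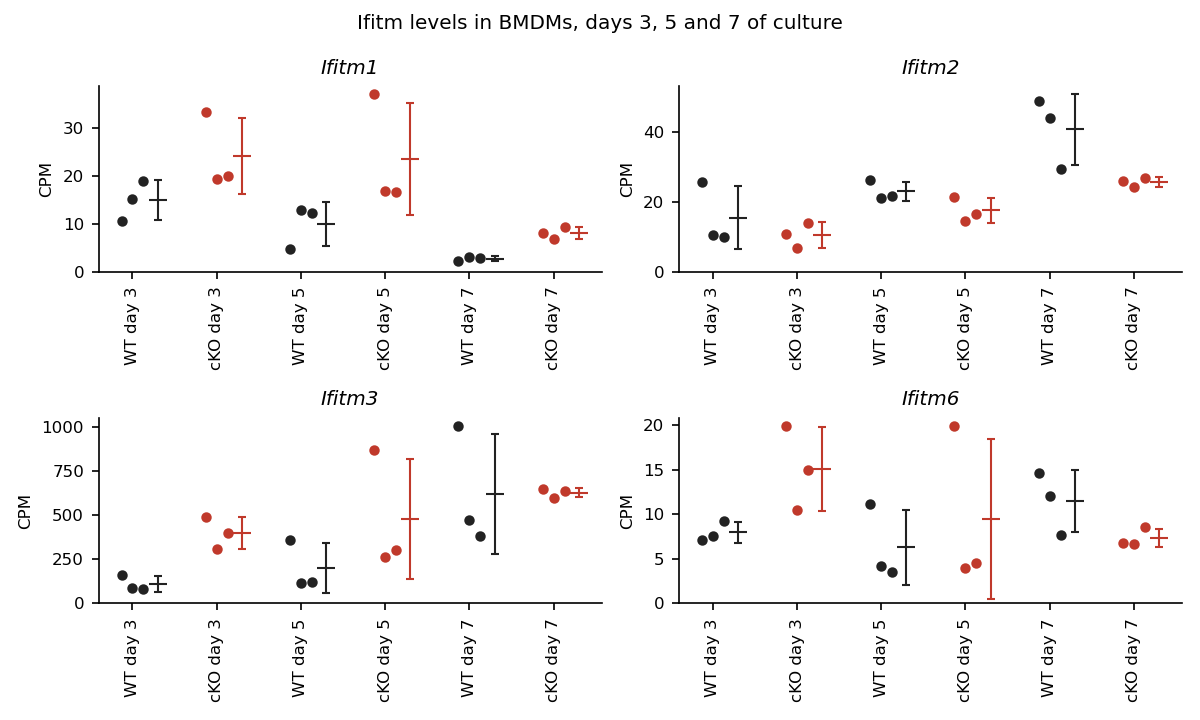
CPM of the 4 members in each WT (black) and cKO (red) library on days 3, 5 and 7, 1 point per library, with the mean ± SD of the 3 libraries beside them. Ifitm3 in WT cells runs from 79.5 to 163 CPM on day 3 to 380 to 1009 CPM on day 7, while the cKO libraries on day 3 already lie between 310 and 488 CPM.

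IFNγ raised Ifitm3 in both genotypes on day 8. WT BMDMs had 308, 429 and 343 CPM untreated and 856, 929 and 959 CPM after IFNγ, a 2.54-fold rise (adjusted p = 0.000185 for a log2 fold change of 1.34, SE 0.17). In cKO BMDMs (n = 2 in each group) the levels were 365 and 436 CPM untreated and 1509 and 1237 CPM after IFNγ, a 3.43-fold rise (adjusted p = 0.000187 for a log2 fold change of 1.78, SE 0.21). No treated library overlapped an untreated one. Without replicate 1 of the treated cKO group, which leaves 1 library there whose spread is taken from the other groups, the cKO rise was 1.66 on the log2 scale (adjusted p = 3.37e-05). IFNγ changed a large part of the transcriptome, 38.9% of all genes tested in WT and 33.9% in cKO cells, so that 2 of 4 and 1 of 4 members called stand beside a high background. Another 2 libraries of this experiment were left out because their title and library name disagree on IFNγ. When they were placed by title, no member was called any longer in either genotype (Ifitm3 adjusted p = 0.113 in WT and 0.947 in cKO cells, with cKO log2 fold change 0.67), and when they were placed by library name the Ifitm3 calls remained (log2 fold change 1.34 in WT and 1.80 in cKO cells).

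Markers of other cells also differed between treated and untreated libraries. The 6 dendritic cell markers summed to 1.06 to 1.76 CPM in untreated and 50.5 to 74.6 CPM in treated WT cells, and to 1.27 to 2.27 and 24.1 to 36.4 CPM in cKO cells. The monocyte markers were at 16.6 to 26.9 CPM in untreated and 30.5 to 42.4 CPM in treated WT cells, and at 15.8 to 20.05 and 93.2 to 181 CPM in cKO cells, without overlap. The neutrophil markers were lower in treated libraries, 15.2 to 16.5 against 20.9 to 35 CPM in WT and 4.83 to 16.8 against 24.7 to 32.4 CPM in cKO cells. Their part in the Ifitm levels was not tested.

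Ifitm1 also rose with IFNγ in WT cells, from 3.29, 1.49 and 2.19 CPM to 9.75, 5.66 and 6.86 CPM (adjusted p = 0.00816 for a log2 fold change of 1.68, SE 0.40), on 14 to 91 counts per library. In cKO cells it read 1.95 and 2.35 CPM untreated and 1.21 and 4.71 CPM treated, the lower treated value resting on 2 counts in the library that stood apart (adjusted p = 0.338 for a log2 fold change of 0.68, SE 0.52). Without that library the Ifitm1 log2 fold change was 1.16 (adjusted p = 0.0673). In cKO cells Ifitm6 was 6.74 and 8.41 CPM untreated and 3.62 and 17.1 CPM treated (adjusted p = 0.412 for a log2 fold change of 0.56, SE 0.49), and without the library that stood apart it passed (log2 fold change 1.21, adjusted p = 0.00553). Ifitm2 was 35.1 and 32.4 CPM and 7.85 and 30.7 CPM in the same cells (adjusted p = 0.238 for a log2 fold change of -0.74, SE 0.46), with a log2 fold change of -0.11 without that library. Ifitm6 was 7.02, 11.6 and 10.5 CPM and 12.5, 16.4 and 15.5 CPM in untreated and treated WT cells and missed the threshold (adjusted p = 0.256 for a log2 fold change of 0.61, SE 0.40). Ifitm2 was 29.4, 39.5 and 38.6 CPM untreated and 33.1, 33.6 and 50.2 CPM treated in WT cells, with a log2 fold change of 0.12 (SE 0.37, adjusted p = 0.824). The IFNγ effect did not differ detectably between genotypes for any member, with log2 differences (cKO minus WT) of 0.43 (SE 0.26, adjusted p = 0.594) for Ifitm3, -0.99 (SE 0.65, adjusted p = 0.622) for Ifitm1, -0.86 (SE 0.58, adjusted p = 0.628) for Ifitm2 and -0.05 (SE 0.64, adjusted p = 0.984) for Ifitm6. That contrast called 0% of all genes, and none of the members had an unadjusted p under 0.05 or was called by edgeR or DESeq2. Without the library that stood apart, the differences were 0.33 for Ifitm3, -0.52 for Ifitm1, -0.21 for Ifitm2 and 0.62 for Ifitm6 on the log2 scale, none past the threshold. Ifitm2 passed there only with replicate 2 of the treated cKO group left out, that is with the library that stood apart alone (log2 difference -2.25, adjusted p = 0.00502).

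Between genotypes on day 8, no member passed. In untreated cells the log2 fold changes of cKO over WT lay between -0.36 (Ifitm6) and 0.15 (Ifitm3), where 0.658% of all genes and 0 of 4 members were called, and none of the members had an unadjusted p under 0.05 or was called by DESeq2. After IFNγ, with 5.48% of all genes called, Ifitm3 was higher in both cKO libraries than in every WT library (adjusted p = 0.0858 for a log2 fold change of 0.59, SE 0.18). At an unadjusted p under 0.05 Ifitm1, Ifitm2 and Ifitm3 passed, and DESeq2 called Ifitm3. With replicate 2 of the treated cKO group left out, so that the library that stood apart was the only one of its group, all 4 members were called, Ifitm1, Ifitm2 and Ifitm6 as lower in cKO. With replicate 1 left out instead, 0 of 4 were called and the Ifitm2 log2 fold change went from -0.95 to -0.32. The values of Ifitm1, Ifitm3 and Ifitm6 were then -0.65, 0.46 and 0.24, against -1.11 (SE 0.47, adjusted p = 0.172), 0.59 (SE 0.18, adjusted p = 0.0858) and -0.41 (SE 0.45, adjusted p = 0.607) with both libraries.

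**Figure D3:**
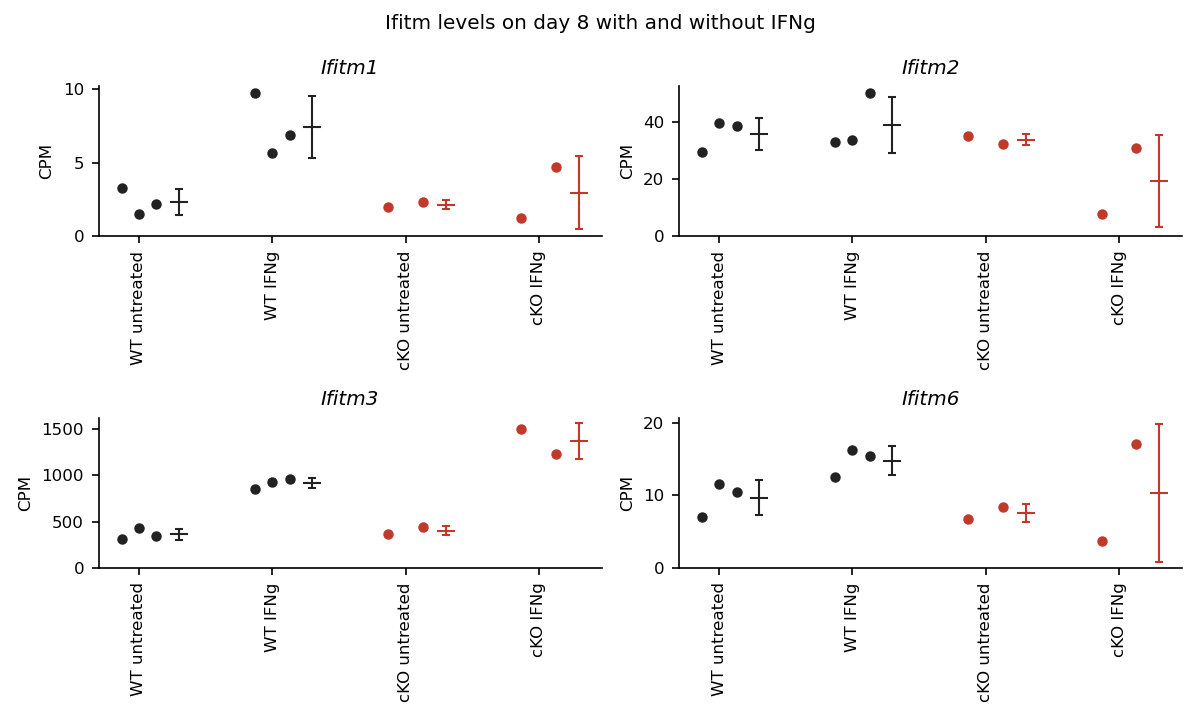
CPM of the 4 members on day 8 in WT (black) and cKO (red) BMDMs, untreated or given IFNγ for 12 h, 1 point per library, with mean ± SD (3 WT and 2 cKO libraries per group). Ifitm3 rises in both genotypes, and the treated cKO library with low Ifitm1, Ifitm2 and Ifitm6 is the one that stood apart.

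Peritoneal macrophages had the highest Ifitm3 and Ifitm6 levels among the untreated groups, with no call between genotypes. Ifitm3 was 1432, 978 and 877 CPM in WT and 885, 977 and 1458 CPM in cKO cells (adjusted p = 0.992 for a log2 fold change of 0.01, SE 0.25). Ifitm6 was 138, 94.2 and 75 CPM in WT and 74.8, 97.3 and 102 CPM in cKO cells (adjusted p = 0.896 for a log2 fold change of -0.16, SE 0.24). Both genes overlapped widely between genotypes. Ifitm2 had 53.5, 31.9 and 26.8 CPM in WT and 26.3, 20.5 and 21.3 CPM in cKO cells, each cKO library below each WT library (adjusted p = 0.408 for a log2 fold change of -0.71, SE 0.27). Ifitm1 was low, at 1.46, 3.48 and 1.32 CPM in WT and 0.728, 0.369 and 2.08 CPM in cKO cells, on 7 to 49 counts per library (adjusted p = 0.611 for a log2 fold change of -1.26, SE 0.63). In these cells 1.06% of all genes tested were called and 0 of 4 members. At an unadjusted p under 0.05 Ifitm2 alone passed, and DESeq2 called none of the members. The dendritic cell markers summed to 19.8 to 26.6 CPM in WT and 10.4 to 16.1 CPM in cKO peritoneal libraries, without overlap. The other marker lists overlapped between genotypes, and the part of the markers in the Ifitm levels was not tested. By the study's methods these libraries came from another kit than those of BMDMs, while the labels give the same kit for both, so tissue and library preparation cannot be told apart when their levels are set beside those of BMDMs.

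In the antibody experiment, Ifitm3 and Ifitm6 were lower with the control antibody than without antibody in WT cells, the only calls among its members. WT cells without antibody had 387, 330.2 and 265 CPM of Ifitm3, and WT cells with the control antibody 146, 135 and 146 CPM, a 2.3-fold lower level (adjusted p = 0.0157 for a log2 fold change of -1.20, SE 0.27). Ifitm6 fell as well, from 15.8, 5.93 and 8.56 to 4.48, 3.45 and 3.11 CPM (adjusted p = 0.0412 for a log2 fold change of -1.44, SE 0.42). Both calls depended on single libraries, Ifitm3 on control antibody replicates 2 and 3 and Ifitm6 on every library but no antibody replicate 2 (adjusted p up to 0.0857 for Ifitm3 and 0.152 for Ifitm6). In that comparison 9.74% of all genes were called. In cKO cells Ifitm3 was 409.7, 365 and 234 CPM without antibody and 232, 276 and 140.1 CPM with the control antibody (adjusted p = 0.313 for a log2 fold change of -0.64, SE 0.27), where 2.09% of all genes and 0 of 4 members were called. There Ifitm3 and Ifitm6 had an unadjusted p under 0.05 and DESeq2 called no member. Whether the control antibody effect differed between genotypes was not tested. In WT cells the macrophage markers were 4660 to 5341 CPM without and 3747 to 3871 CPM with the control antibody, and the dendritic cell markers 2.12 to 2.68 and 0.85 to 1.54 CPM, both without overlap. The stromal markers were 39.96 to 90.7 CPM without and 198 to 363 CPM with the control antibody in cKO cells, against 14.4 to 109.6 and 15.6 to 251 CPM in WT cells, and their part in the Ifitm levels was not tested.

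The mean level of no member was lower with the IFNAR1 antibody than with the control antibody, in either genotype. In WT cells Ifitm3 was 241, 262 and 188 CPM with the blocking antibody, each library above each control antibody library (adjusted p = 0.0895 for a log2 fold change of 0.70, SE 0.27). In cKO cells it was 319, 195 and 175 CPM against 232, 276 and 140.1 CPM (adjusted p = 0.875 for a log2 fold change of 0.09, SE 0.27). Ifitm3 averaged 230 CPM with the IFNAR1 antibody in both genotypes, against 327 CPM in WT and 336 CPM in cKO cells without antibody. These 2 arms were not tested against each other. Of the members, 0 of 4 were called in either genotype, beside 11.2% of all genes in WT and 4.68% in cKO cells, and the difference of the 2 effects called 0% of genes and had a log2 value of -0.60 (SE 0.38, adjusted p = 0.928) for Ifitm3. At an unadjusted p under 0.05 Ifitm3 passed in WT cells and no member in cKO cells or in the difference, and DESeq2 called none of them in these 3 comparisons.

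Between genotypes, no arm gave a call for Ifitm3, with log2 fold changes of 0.04 (SE 0.26, adjusted p = 0.938) without antibody, 0.60 (SE 0.27, adjusted p = 0.27) with the control antibody and -0.0033 (SE 0.27, adjusted p = 0.997) with the IFNAR1 antibody. The shares of all genes called were 8.16, 5.11 and 0.698% in the same order, and 0 of 4 members were called in each arm. At an unadjusted p under 0.05 Ifitm1 passed without antibody, Ifitm3 with the control antibody and none with the IFNAR1 antibody, and DESeq2 called none in any arm. Ifitm1 had only 2 to 41 counts per library here and read 1.39, 0.377 and 0.658 CPM in WT and 0.80, 3.28 and 1.89 CPM in cKO cells without antibody (adjusted p = 0.139 for a log2 fold change of 1.24, SE 0.52). The neutrophil markers were 36.4 to 66.1 CPM in WT and 74.1 to 96.6 CPM in cKO cells without antibody, and their part was not tested. Ifitm2 stayed between 9.79 and 22.2 CPM over all 18 libraries.

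The 3 sets of BMDMs gave 10 of the 11 member calls between cKO and WT, from counts of 17 to 30031 per member and library. Ifitm1 was higher in cKO cells in every set. WT libraries had 3.03, 2.94 and 3.6 CPM in set 1, 0.43, 0.973 and 1.16 CPM in set 2 and 3.63, 3.23 and 2.08 CPM in set 3. The cKO libraries of the same sets had 23.1, 20.7 and 12.9, then 13, 9.41 and 12.4, then 15.6, 17.6 and 10.7 CPM. All 9 cKO libraries lay above all 9 WT libraries, by 5.97-fold in set 1 (adjusted p = 6.89e-07 for a log2 fold change of 2.58, SE 0.31), 13.9-fold in set 2 (adjusted p = 3.1e-08 for a log2 fold change of 3.79, SE 0.36) and 4.79-fold in set 3 (adjusted p = 3.54e-06 for a log2 fold change of 2.26, SE 0.31). The neutrophil markers summed to 109.7 to 167 CPM in WT and 286 to 354 CPM in cKO cells of set 1 and to 105 to 169 and 265 to 387 CPM in set 3. In set 2 they were 138 to 217 CPM in WT and 189 to 211 CPM in cKO cells and overlapped. The monocyte markers were 116 to 163 CPM in WT and 426 to 472 CPM in cKO cells of set 2 and overlapped between genotypes in sets 1 and 3. Higher in cKO cells without overlap in all 3 sets (WT against cKO) were the dendritic cell markers, at 4.09 to 6.33 against 10.1 to 13.3 CPM in set 1, 1.57 to 2.53 against 4.93 to 5.25 CPM in set 2 and 5.2 to 5.96 against 9.58 to 14.3 CPM in set 3. The same held for the B cell markers, at 2.69 to 6.9 against 7.86 to 10.6 CPM in set 1, 4.12 to 6.08 against 12.5 to 14.7 CPM in set 2 and 2.77 to 5.47 against 5.9 to 12.8 CPM in set 3, and for the peritoneal macrophage markers, at 8.94 to 11.1 against 18.8 to 19.9 CPM in set 1, 8.69 to 9.88 against 19.2 to 23.9 CPM in set 2 and 7.52 to 8.51 against 15.5 to 17.3 CPM in set 3. Their part in the Ifitm levels was not tested, and the sets were not tested against each other.

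Ifitm2 and Ifitm6 were lower in cKO cells in all 3 sets. Ifitm2 averaged 45.6 ± 6.2, 43.1 ± 6.71 and 43 ± 8.48 CPM in WT cells of sets 1, 2 and 3. In cKO cells it averaged 27.8 ± 3.39, 23.7 ± 4.55 and 21.4 ± 3.3 CPM. Every one of the 9 cKO libraries, at 18.8 to 31.6 CPM, lay below every WT library, at 37.5 to 52.8 CPM. The log2 fold changes were -0.72 (SE 0.17, adjusted p = 0.00187), -0.86 (SE 0.17, adjusted p = 0.00044) and -1.01 (SE 0.17, adjusted p = 5.39e-05). Ifitm6 was 23.6, 12.2 and 16.7 CPM in WT and 13.6, 10.5 and 8.66 CPM in cKO cells of set 1, where the groups overlapped, 12.2, 9.41 and 10.8 and 6.0, 8.76 and 4.13 CPM in set 2, and 20.5, 14.2 and 14.3 and 8.91, 9.35 and 8.08 CPM in set 3. Its log2 fold changes were -0.67 (SE 0.24, adjusted p = 0.0312), -0.78 (SE 0.24, adjusted p = 0.0224) and -0.91 (SE 0.24, adjusted p = 0.00422). The calls of Ifitm6 in sets 1 and 2 were lost without any one of 4 libraries (in set 1, WT replicate 1 or 3 or cKO replicate 2 or 3, and in set 2, replicate 1 or 3 of either genotype), with adjusted p up to 0.239 and 0.147, and in set 1 also in a fit of WT and cKO set 1 alone (adjusted p = 0.0731). The call in set 3 was not lost in such fits. The 8 macrophage markers were lower in cKO cells too, 6843 to 6854 against 5080 to 5550 CPM in set 2 and 5325 to 7999 against 4590 to 4750 CPM in set 3, without overlap, and 5495 to 7866 against 5097 to 5650 CPM in set 1, with overlap. Their part in the Ifitm2 and Ifitm6 levels was not tested.

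Ifitm3 was called in set 2 alone, and there it was lower in cKO cells. The WT libraries of set 2 had 759, 629 and 653 CPM and the cKO libraries 372, 564 and 326 CPM (adjusted p = 0.00101 for a log2 fold change of -0.69, SE 0.15). In set 1 the WT libraries had 514, 497 and 569 CPM and the cKO libraries 511, 464 and 546 CPM (adjusted p = 0.812 for a log2 fold change of -0.05, SE 0.15). In set 3 the values were 434, 421 and 541 CPM in WT and 383, 434 and 428 CPM in cKO cells (adjusted p = 0.403 for a log2 fold change of -0.17, SE 0.15). The members called numbered 3, 4 and 3 of 4 in sets 1, 2 and 3, where 34.6, 21.9 and 35.9% of all genes were called. For Ifitm3 the SE was smaller in this experiment than in the time course, 0.15 against 0.50 to 0.51. That SE rests on a spread estimated over all groups of an experiment and does not give the spread of a single group.

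**Figure D4:**
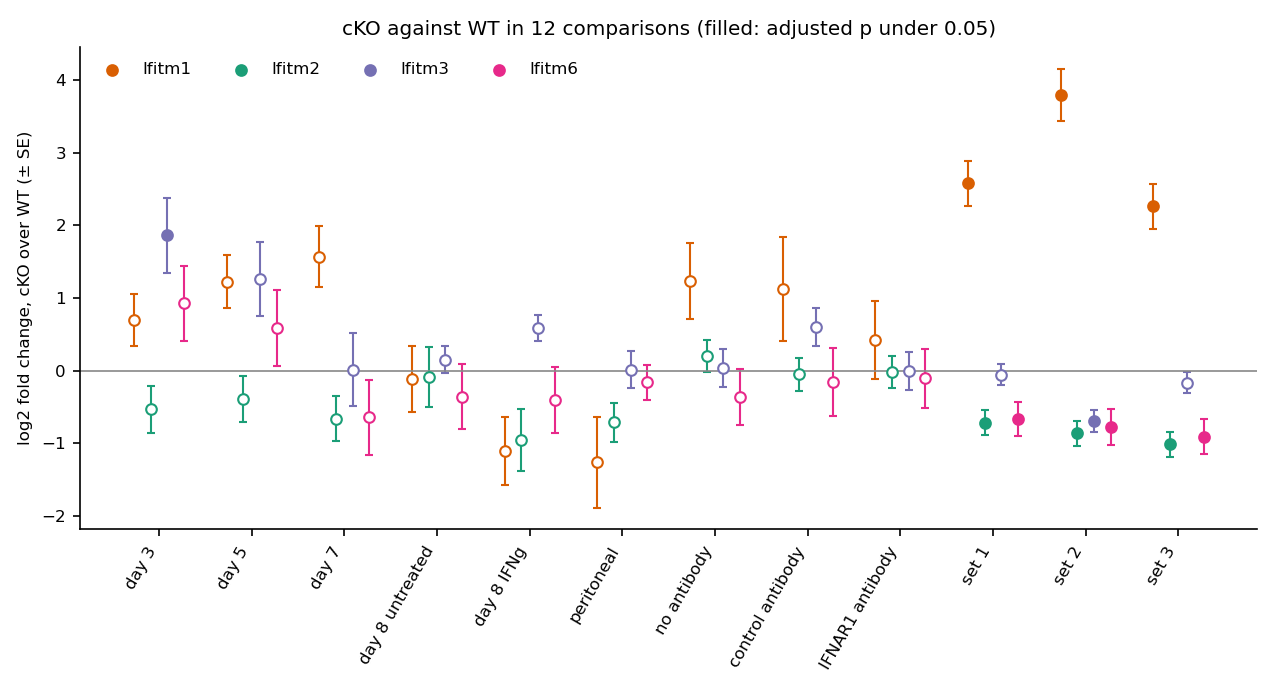
Log2 fold change of cKO over WT with its standard error for the 4 members in each of the 12 comparisons of these genotypes, filled where the adjusted p is under 0.05 and open where it is not. Ifitm1 is filled and above 0 in sets 1, 2 and 3, Ifitm2 and Ifitm6 are filled and below 0 there, and Ifitm3 is filled above 0 on day 3 and below 0 in set 2.

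Over the 12 comparisons of cKO with WT, Ifitm1 was called higher in 3 and lower in 0, and Ifitm2 lower in 3 and higher in 0. Ifitm6 was called lower in 3, and Ifitm3 higher in 1 and lower in 1. The log2 fold changes ran from -1.26 to 3.79 for Ifitm1, from -1.01 to 0.21 for Ifitm2, from -0.69 to 1.86 for Ifitm3 and from -0.91 to 0.92 for Ifitm6. The comparisons of different experiments were not tested against each other.

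The Sting double KO libraries had lower Ifitm1 and higher Ifitm3 than the cKO sets, a difference of line and culture together. Sting double KO cells had 5.96, 3.28 and 3.37 CPM of Ifitm1, below each of the 9 cKO set libraries, at 9.41 to 23.1 CPM. The level was 3.49-fold lower than the mean of the 3 cKO sets (adjusted p = 1.31e-05 for a log2 fold change of -1.80, SE 0.26) and 2.1-fold higher than that of the 3 WT sets (adjusted p = 0.00419 for a log2 fold change of 1.07, SE 0.29). Against WT set 1 or WT set 3 alone, the sets with the higher WT levels, the latter call was lost (adjusted p = 0.402 and 0.282), and so it was without replicate 1 of the double KO (adjusted p = 0.11). Ifitm3 was 670.4, 717 and 766 CPM in these cells, above every cKO set library, at 326 to 564 CPM (adjusted p = 6.77e-05 for a log2 fold change of 0.69, SE 0.11). Its difference from the WT sets (adjusted p = 0.0106 for a log2 fold change of 0.38, SE 0.12) was lost against WT set 2 alone (log2 fold change 0.08) and without replicate 3 of the double KO (adjusted p = 0.0734). Ifitm6 was 9.5, 13.6 and 12.4 CPM and just missed the threshold against the cKO sets (adjusted p = 0.0543 for a log2 fold change of 0.49, SE 0.19), which it passed in 7 of 22 alternative fits, DESeq2 among them. The stromal markers were higher in the Sting double KO libraries, 181 to 226 CPM, than in the cKO sets, 26.6 to 80 CPM, and the neutrophil markers were 269 to 279 CPM against 189 to 387 CPM. Their part in the Ifitm levels was not tested.

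Irf7 double KO cells also had lower Ifitm1 than the cKO sets, and less H3.3 transcript. Ifitm1 was 3.18, 5.88 and 8.02 CPM in these cells, below each cKO set library (adjusted p = 0.000582 for a log2 fold change of -1.37, SE 0.24). Their gene list was that of set 3, and against cKO set 3 alone the log2 fold change was -1.35 (adjusted p = 0.0146). Ifitm3 was 597, 556 and 489 CPM and missed the threshold (adjusted p = 0.11 for a log2 fold change of 0.30, SE 0.12). H3f3a and H3f3b, the genes targeted in the cKO cells, were lower than in the cKO sets. Their log2 fold changes were -0.91 (SE 0.13, adjusted p = 5.46e-05) and -0.73 (SE 0.14, adjusted p = 0.00131). These cells thus differ from the sets in H3.3 transcript as well as in Irf7, and the 2 cannot be told apart here. H3f3b was 71.9, 147 and 143 CPM in the 3 libraries. The B cell markers were 3.68 to 5.61 CPM, below every cKO set library, at 5.9 to 14.7 CPM. Neutrophil markers were lower in these libraries, 154 to 165 CPM, than in the cKO sets, and so were the monocyte markers, 135 to 248 CPM against 354 to 574 CPM, and their part was not tested. The double KO lines were not tested against each other.

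In the Mavs double KO libraries Ifitm1 was within the range of the cKO sets. It was 13, 11.3 and 16.1 CPM (adjusted p = 0.786 for a log2 fold change of -0.13, SE 0.21), and 6.72-fold above the WT sets (adjusted p = 1.32e-09 for a log2 fold change of 2.75, SE 0.23). Ifitm6 was the one member called against the cKO sets, at 4.4, 5.76 and 4.07 CPM against 4.13 to 13.6 CPM (adjusted p = 0.0156 for a log2 fold change of -0.83, SE 0.22). That call was lost without replicate 1 or replicate 3 of the double KO (adjusted p = 0.0794 and 0.112) and against cKO set 2 alone, whose own Ifitm6 level was the lowest of the 3 sets (log2 fold change -0.40, adjusted p = 1). Ifitm3 was 399, 408 and 314 CPM and below the WT sets (adjusted p = 0.000683 for a log2 fold change of -0.56, SE 0.12), a call lost against WT set 3 alone (adjusted p = 0.0758). The dendritic cell markers were 3.37 to 4.07 CPM, below every cKO set library, at 4.93 to 14.3 CPM. In these libraries the neutrophil markers were 99.8 to 155 CPM, below the cKO sets, and the stromal markers 92.6 to 331 CPM, above them, and their part was not tested.

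Ifitm2 was below the WT sets in all 3 double KO lines. It read 24.9, 27.1 and 27 CPM without Sting, 28.3, 21.9 and 22.5 CPM without Mavs and 30.5, 21.7 and 20.1 CPM without Irf7, and all 9 libraries lay below the 9 WT set libraries. The log2 fold changes against the WT sets were -0.74 (SE 0.14, adjusted p = 0.000213), -0.86 (SE 0.14, adjusted p = 3.23e-05) and -0.87 (SE 0.14, adjusted p = 6.15e-05), and against the cKO sets they were 0.13 (SE 0.14, adjusted p = 0.521), 0.0039 (SE 0.14, adjusted p = 0.992) and -0.0012 (SE 0.14, adjusted p = 0.997). The 2 kinds of comparison share the double KO libraries. Against the cKO sets, the members called numbered 2 of 4 (Sting), 1 of 4 (Mavs) and 1 of 4 (Irf7), beside 36.4, 9.32 and 10.6% of all genes. Against the WT sets they numbered 3, 4 and 3 of 4, beside 40.2, 43.2 and 31.9%. The Ifitm6 call of the Irf7 double KO against the WT sets (adjusted p = 0.0471 for a log2 fold change of -0.52, SE 0.20) was lost in 13 of 22 alternative fits, and that of Ifitm1 (adjusted p = 0.000112 for a log2 fold change of 1.51, SE 0.27) in 1, against WT set 1 alone (adjusted p = 0.0504).

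**Figure D5:**
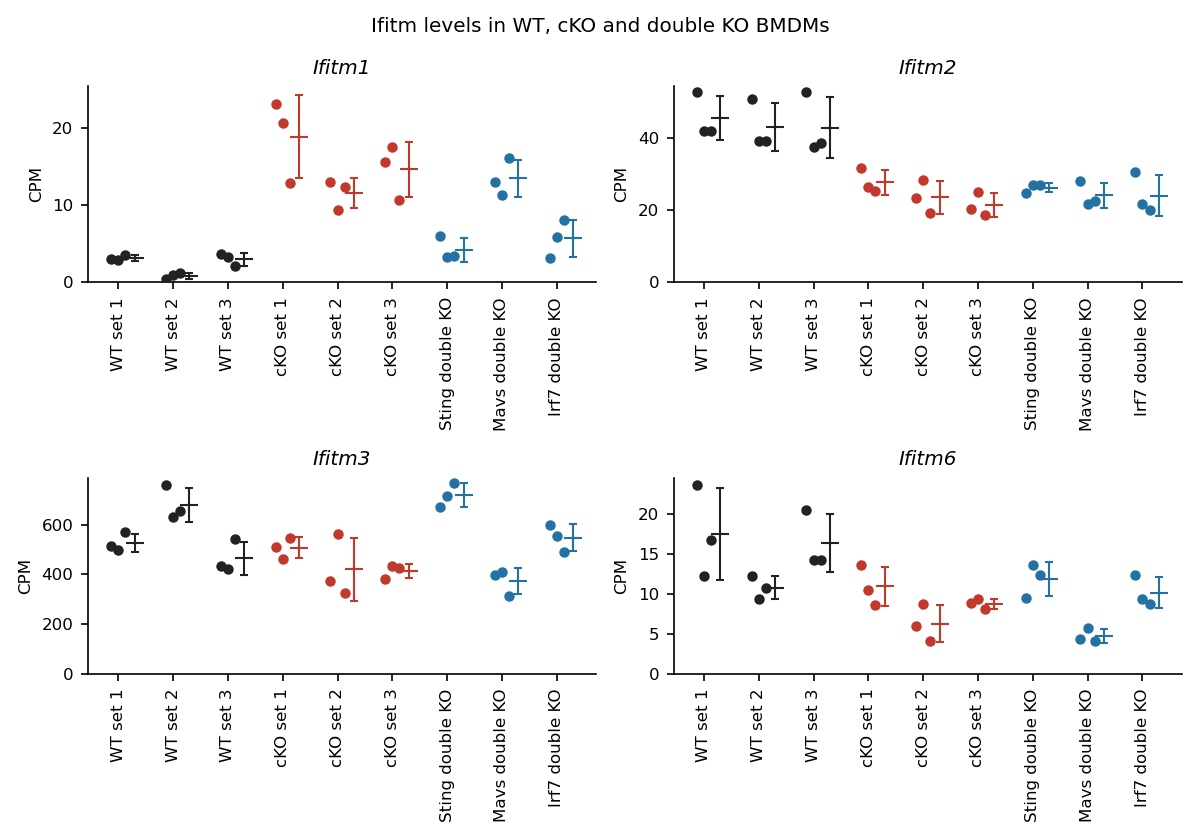
CPM of the 4 members in each library of WT sets 1, 2 and 3 (black), cKO sets 1, 2 and 3 (red) and the Sting, Mavs and Irf7 double KO lines (blue), with the mean ± SD of 3 libraries beside the points. Ifitm1 in the Sting and Irf7 double KO libraries lies between 3.18 and 8.02 CPM, below the cKO sets, and Ifitm2 lies at or below 31.6 CPM in every cKO and double KO library.

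Interferon signalling was followed in 12 receptor, kinase and transcription factor genes. On day 3, 6 of the 12 were higher (among them Irf7, Irf9 and Jak2) and 1 lower (Ifnar1) in cKO cells, beside 8.65% of all genes called. The median log2 fold change was 0.44 against 0.036 over all genes. On day 5 the same 6 were higher and 0 lower, beside 3.12% of all genes called, with a median of 0.39 against 0.0075. On day 7 none was called either way, beside 1.82% of all genes, with a median of -0.039 against 0.013 over all genes. Irf7, the transcription factor that amplifies type I interferon, was called higher in cKO cells in 11 of the 12 genotype comparisons, all but day 7, from a log2 fold change of 1.45 (SE 0.26, adjusted p = 0.000185) in set 2 to 6.61 (SE 1.04, adjusted p = 0.000872) on day 3. Ifitm3 was called in that direction on day 3 alone. In set 1, 4 of the 12 were higher and 3 lower, in set 2, 6 and 1, and in set 3, 3 and 3, with Irf7 higher and Ifnar1 lower in each. The shares of all genes called in these sets were 34.6, 21.9 and 35.9%. The medians in the sets were -0.01, 0.31 and -0.01 on the log2 scale, against -0.03, -0.01 and -0.06 over all genes. With IFNγ, 8 of the 12 rose and 1 fell (Ifngr1) in WT cells, and 7 rose and 1 fell in cKO cells, beside 38.9 and 33.9% of all genes called, and the medians of the list were 1.01 and 1.28 against -0.01 and -0.02 over all genes. Under the IFNAR1 antibody, against the control antibody, 1 of the 12 was called lower in WT cells (Irf9) and 2 in cKO cells (Stat2 and Irf9). None was called higher, and the shares of all genes called were 11.2 and 4.68%.

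Of 7 other genes that act on viral entry or release, Bst2 (tetherin) and Ly6e were called higher in cKO cells on day 3, when 8.65% of all genes were called. Their log2 fold changes were 2.23 (SE 0.58, adjusted p = 0.0246) and 2.69 (SE 0.34, adjusted p = 0.00018). Ly6e was also higher in each set, by 1.14 (SE 0.17, adjusted p = 1.41e-05), 1.13 (SE 0.17, adjusted p = 2.26e-05) and 0.93 (SE 0.17, adjusted p = 0.000143). Serinc3 and Serinc5, which encode restriction factors of retroviral infectivity, were called lower in sets 1 and 3, by -1.24 (SE 0.14, adjusted p = 1.89e-07) and -1.32 (SE 0.14, adjusted p = 6.79e-08) for Serinc3 and -1.34 (SE 0.15, adjusted p = 2.6e-07) and -1.56 (SE 0.15, adjusted p = 2.69e-08) for Serinc5. In all, 3 of the 7 were called higher and 2 lower in set 1, 1 and 0 in set 2, and 3 and 3 in set 3, beside 34.6, 21.9 and 35.9% of all genes. Bst2 was higher in sets 1 and 3 but had a log2 fold change of -0.47 (SE 0.18, adjusted p = 0.0645) in set 2, the set in which Ifitm3 was lower. The median of the 7 genes was -0.03 on day 3. Of 7 genes whose products modify or bind IFITM proteins, 1 was called on day 3, beside 8.65% of all genes. It was the palmitoyltransferase gene Zdhhc20, lower in cKO cells, with a median of -0.05 over the 7. In the sets, the ubiquitin ligase gene Nedd4 was called higher, and Zdhhc20 and the adaptor gene Ap2m1 lower, in all 3, beside the high share of genes called there.

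Around the cluster, 35 other annotated genes lie within 200 kb, of which 16 were tested in the time course and 17 in the sets, Ifitm5 included. Pkp3, which encodes the desmosomal protein plakophilin 3, was the one neighbour called on each of days 3, 5 and 7, higher in cKO cells by log2 fold changes of 2.41 (SE 0.31, adjusted p = 0.000237), 1.97 (SE 0.31, adjusted p = 0.00394) and 2.48 (SE 0.34, adjusted p = 0.00181). It was higher in sets 1, 2 and 3 as well, with the largest difference in set 2 (adjusted p = 1.5e-11 for a log2 fold change of 4.59, SE 0.28). In set 1, 1 of the 17 tested neighbours was called higher (Pkp3) and 4 lower in cKO cells, in set 2, 6 and 1, and in set 3, 3 and 6, beside 34.6, 21.9 and 35.9% of all genes called in either direction. Sirt3 was lower in sets 1 and 3 and higher in set 2. Ifitm5 was among those lower in set 3 (adjusted p = 0.0241 for a log2 fold change of -1.48, SE 0.50), at 1.15 CPM or less.

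As a description over group means of log2 CPM, each experiment centred on its own mean, the highest Pearson correlation between 2 members was 0.39 (Ifitm3 and Ifitm6) and the lowest -0.52 (Ifitm1 and Ifitm2). These points share libraries and scaling within an experiment. Among 11170 genes tested in every experiment, those most like Ifitm3 were Ifi27l2a (r = 0.88), Bst2 (0.87) and Tmcc3 (0.86), the first and the second of which are known interferon-stimulated genes. Il1r2, a decoy receptor for interleukin 1, came closest to Ifitm1 (r = 0.89), before Gpr171 (0.86) and Pecam1 (0.81). For Ifitm2 the closest were Slc16a7 (0.90), Ak3 (0.89) and Ndrg3 (0.88), and for Ifitm6 they were Sec61b (0.82), Ndufb11 (0.81) and Btg2 (0.81).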

How the data were processed

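Per the labels, total RNA was depleted of rRNA and made into NEBNext Ultra II libraries, which do not mark strand. For peritoneal cells the study's methods name a SMART-Seq kit instead. The submitters' processing notes name Cutadapt, STAR and mm10, with no versions given in the sources used here. The authors deposited the raw read counts per gene that STAR writes, and the unstranded counts (column 2) were used as deposited, with lines for unmapped, multimapping, unassigned and ambiguous reads left out. The authors themselves quantified genes with RSEM and tested them with SARTools, and those values were not used here. A read that overlaps exons of 2 genes is counted for neither.

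Genes were filtered by edgeR 4.0.16 (filterByExpr, smallest count 10, smallest total 15), scaled by TMM and tested with its quasi-likelihood test (glmQLFit and glmQLFTest, newer method) under R 4.3.3. All groups of an experiment shared 1 model, with Benjamini-Hochberg adjustment across every gene that passed the filter. Each experiment was fitted on its own, so levels set across experiments are a description. Log2 CPM for the comparison of patterns used a prior count of 2. The fits were tested on simulated data. Depth was 3614967 to 45581528 counts on genes per library, and Ifitm1 in particular rested on as few as 2 counts.

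Of 81 libraries, 79 were placed in 27 groups by their labels, which call them biological replicates, and 2 were left out because their labels disagree. The text names the 4 members in every comparison, Ifitm5, Ifitm7 and Ifitm10 by level, genes of 3 lists (interferon signalling, IFITM partners, other entry and release factors), genes within 200 kb of the cluster and the 3 genes most alike to each member. The members and lists were chosen with earlier results of these data known. Same-numbered libraries deviated together (each of 3 correlations above 0.1) in cKO against WT on days 3 and 7 and in peritoneal cells, in cKO day 7 against 5, in IFNγ against untreated WT and in control against no antibody WT, and there the replicate block changed no call. DESeq2 1.42.0, RLE scaling, no filter, the groups compared alone, a strand-specific column, the replicate block, each library left out, single sets as reference and both placings of the 2 conflicting libraries were tried as alternatives, and the older quasi-likelihood method and crossed replicate numbers were added after seeing the data.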

Additional observations from a re-analysis of the deposited data

Results flagged for a closer look

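The 2 libraries of day 8 cKO cells that were placed in no group stood above the placed untreated libraries in some members. The library titled as IFNγ-treated, whose library name has no IFNγ, read 4.90 CPM of Ifitm1, 309 CPM of Ifitm3 and 7.11 CPM of Ifitm6. The library titled without IFNγ, whose library name has IFNγ, read 6.11 CPM of Ifitm1, 1134 CPM of Ifitm3 and 13.7 CPM of Ifitm6. The highest placed untreated libraries had 3.29, 436 and 11.6 CPM of these genes. Both libraries were in no comparison of the report, and these CPM were scaled with all 12 libraries of that day.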

How the results depend on the processing

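Of the 124 results on single members, 30 were called, and no alternative reversed the direction of a called one. Of the called results, 14 lost their call in at least 1 alternative and 16 kept it in all that were run. Most losses stand beside the result in the report, and Ifitm6 in control over no antibody in WT cells also lost its call with the strand-specific column (adjusted p = 0.0521). The causes of the changes below were not tested, except that a fit with a library left out has fewer samples. The precision of Ifitm1 is limited by depth, since it had 2 to 41 counts per library in the antibody experiment.

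The number of the 4 members called changed in 24 of the 31 comparisons. In 6 of them it stayed within 1.5 times, moving by 1 member (cKO over WT in sets 1 and 2, the Sting double KO over the cKO sets and over the WT sets, and the Mavs and Irf7 double KO over the WT sets), and in the other 18 it moved further. It was 1 for cKO over WT on day 3, and 2 in a model of the compared groups alone and 0 to 1 with 1 library left out. The count was 0 for cKO over WT on day 5, and 1 with DESeq2 and 1 with the replicate block. This number was 0 for cKO over WT on day 7, and 1 with DESeq2. It was 0 for the cKO effect on day 7 minus day 3, and 1 with the replicate block. The count was 0 for WT day 5 over day 3, and 0 to 1 with 1 library left out. This number was 0 for WT day 7 over day 5, and 2 with DESeq2, 1 without the filter on low counts, 1 with the replicate block and 0 to 2 with 1 library left out. It was 0 for cKO day 5 over day 3, and 0 to 1 with 1 library left out. The count was 0 for cKO day 7 over day 5, and 1 with DESeq2. This number was 0 for cKO over WT on day 8 IFNγ, and 1 with DESeq2, 1 without the filter on low counts and 0 to 4 with 1 library left out. It was 2 for IFNγ in WT, and 0 with the conflicting libraries placed by title. The count was 1 for IFNγ in cKO, and 2 with the strand-specific count column of the larger total, 0 with the conflicting libraries placed by title and 1 to 2 with 1 library left out. This number was 0 for the IFNγ effect of cKO minus WT, and 0 to 1 with 1 library left out. It was 0 for cKO over WT without antibody, and 0 to 1 with 1 library left out. The count was 0 for cKO over WT with control antibody, and 1 in a model of the compared groups alone. This number was 0 for IFNAR1 over control antibody in WT, and 1 with the replicate block and 0 to 1 with 1 library left out. It was 2 for control over no antibody in WT, and 1 with the strand-specific count column of the larger total and 0 to 2 with 1 library left out. The count was 1 for Mavs double KO over the cKO sets, and 2 with set 1 alone as the reference, 0 with set 2 alone as the reference and 0 to 1 with 1 library left out. This number was 1 for Irf7 double KO over the cKO sets, and 2 with set 2 alone as the reference and 1 to 2 with 1 library left out.

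Leaving out single libraries added these calls. Ifitm2 was called in WT day 5 over day 3 without WT day 3 replicate 1 (log2 fold change 1.15, adjusted p = 0.0342), and Ifitm6 in cKO day 5 over day 3 without cKO day 5 replicate 1 (log2 fold change -1.82, adjusted p = 0.0169). Ifitm1 was called in cKO over WT without antibody when WT replicate 1 was left out (log2 fold change 1.87, adjusted p = 0.0408), Ifitm3 in IFNAR1 over control antibody in WT cells without IFNAR1 antibody replicate 3 (log2 fold change 0.82, adjusted p = 0.0354), and Ifitm3 in the Irf7 double KO over the cKO sets without cKO set 2 replicate 2 (log2 fold change 0.39, adjusted p = 0.00772). With replicate 2 of the treated cKO group left out, so that the library that stood apart was alone, Ifitm2 was called lower after IFNγ in cKO cells (log2 fold change -2.13, adjusted p = 0.00217) and in the difference of the IFNγ effects (log2 fold change -2.25, adjusted p = 0.00502). Without replicate 1 instead, Ifitm6 was called higher after IFNγ in cKO cells (log2 fold change 1.21, adjusted p = 0.00553).

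The replicate block added a call of Ifitm3 in cKO over WT on day 5 (log2 fold change 1.26, adjusted p = 0.0175), in the cKO effect on day 7 minus day 3 (log2 fold change -1.74, adjusted p = 0.0496), in WT day 7 over day 5 (log2 fold change 1.70, adjusted p = 0.0113) and in IFNAR1 over control antibody in WT cells (log2 fold change 0.66, adjusted p = 0.0355), and of Ifitm6 in the Sting double KO over the cKO sets (log2 fold change 0.50, adjusted p = 0.0306). In these comparisons the libraries share only a number, except that same-numbered libraries deviated together within day 3 and within day 7. It changed no other call. In the 2 libraries each of untreated and treated cKO cells, same-numbered libraries deviated against each other (correlation -0.19), and with crossed numbers, added after seeing the data, 1 of 4 members were called, against 1 with the numbers as given.

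All results that changed sign had a log2 fold change whose adjusted p missed the threshold in both fits. With the strand-specific count column of the larger total, the sign changed for Ifitm3 in cKO over WT on day 7 (-0.013), Ifitm1 in cKO over WT on day 8 IFNγ (1.12), Ifitm1 in the IFNγ effect of cKO minus WT (1.13) and Ifitm2 in cKO over WT with IFNAR1 antibody (0.015). With the strand-specific count column of the larger total, the sign changed for Ifitm2 in Irf7 double KO over the cKO sets (0.027) and Ifitm3 in Irf7 double KO over the WT sets (0.0083). With the conflicting libraries placed by title, the sign changed for Ifitm1 in cKO over WT on day 8 untreated (0.56), Ifitm6 in IFNγ in cKO (-0.0058) and Ifitm3 in the IFNγ effect of cKO minus WT (-0.68). With the conflicting libraries placed by library name, the sign changed for Ifitm1 in cKO over WT on day 8 untreated (0.39) and Ifitm6 in the IFNγ effect of cKO minus WT (0.091). With the replicate block, the sign changed for Ifitm2 in cKO over WT on day 8 untreated (0.079) and Ifitm2 in Mavs double KO over the cKO sets (-0.0010). With DESeq2, the sign changed for Ifitm6 in the IFNγ effect of cKO minus WT (0.036), Ifitm2 in Irf7 double KO over the cKO sets (0.013) and Ifitm3 in Irf7 double KO over the WT sets (0.024). With RLE scaling, the sign changed for Ifitm6 in the IFNγ effect of cKO minus WT (0.00087), Ifitm2 in Irf7 double KO over the cKO sets (0.013) and Ifitm3 in Irf7 double KO over the WT sets (0.024). With the older quasi-likelihood method, the sign changed for Ifitm6 in the IFNγ effect of cKO minus WT (0.089). With set 1 alone as the reference, the sign changed for Ifitm2 in Sting double KO over the cKO sets (-0.078), Ifitm2 in Mavs double KO over the cKO sets (-0.20), Ifitm6 in Irf7 double KO over the cKO sets (-0.11) and Ifitm3 in Irf7 double KO over the WT sets (0.056). With set 2 alone as the reference, the sign changed for Ifitm1 in Mavs double KO over the cKO sets (0.22), Ifitm2 in Irf7 double KO over the cKO sets (0.027) and Ifitm6 in Sting double KO over the WT sets (0.13). Without the filter on low counts, the sign changed for Ifitm2 in Mavs double KO over the cKO sets (-0.0094), Ifitm2 in Irf7 double KO over the cKO sets (0.014) and Ifitm3 in Irf7 double KO over the WT sets (0.041). In a model of the compared groups alone, the sign changed for Ifitm2 in Mavs double KO over the cKO sets (-0.012), Ifitm2 in Irf7 double KO over the cKO sets (0.021) and Ifitm3 in Irf7 double KO over the WT sets (0.012). With set 3 alone as the reference, the sign changed for Ifitm2 in Irf7 double KO over the cKO sets (0.17) and Ifitm3 in Irf7 double KO over the WT sets (0.23).

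With 1 library left out at a time, log2 fold changes ran from -0.80 to 0.011 for Ifitm2 in cKO over WT on day 3, from -0.54 to 1.28 for Ifitm6 in cKO over WT on day 5, from -0.23 to 0.56 for Ifitm3 in cKO over WT on day 7 and from -0.70 to 0.14 for Ifitm2 in the cKO effect on day 7 minus day 3. Those of the next results ran from -0.52 to 0.26 for Ifitm1 in cKO day 5 over day 3, from -0.47 to 0.57 for Ifitm3 in cKO day 5 over day 3, from -0.73 to 0.78 for Ifitm6 in cKO day 7 over day 5 and from -0.37 to 0.20 for Ifitm1 in cKO over WT on day 8 untreated. Further ranges with a change of sign were from -2.05 to 0.24 for Ifitm6 in cKO over WT on day 8 IFNγ, from -0.10 to 0.22 for Ifitm2 in IFNγ in WT, from -0.84 to 1.16 for Ifitm1 in IFNγ in cKO and from -1.08 to 1.21 for Ifitm6 in IFNγ in cKO. The same fits gave from -1.68 to 0.62 for Ifitm6 in the IFNγ effect of cKO minus WT, from -0.23 to 0.25 for Ifitm3 in cKO over WT, peritoneal, from -0.37 to 0.11 for Ifitm6 in cKO over WT, peritoneal and from -0.13 to 0.24 for Ifitm3 in cKO over WT without antibody. Ranges on both sides of 0 were also from -0.69 to 0.11 for Ifitm6 in cKO over WT without antibody, from -0.12 to 0.048 for Ifitm2 in cKO over WT with control antibody, from -0.81 to 0.15 for Ifitm6 in cKO over WT with control antibody and from -0.20 to 0.077 for Ifitm2 in cKO over WT with IFNAR1 antibody. The remaining such ranges were from -0.31 to 0.16 for Ifitm3 in cKO over WT with IFNAR1 antibody, from -0.38 to 0.073 for Ifitm6 in cKO over WT with IFNAR1 antibody, from -0.22 to 0.30 for Ifitm3 in IFNAR1 over control antibody in cKO and from -0.14 to 0.13 for Ifitm2 in the IFNAR1 over control effect of cKO minus WT. In addition they ran from -0.25 to 0.70 for Ifitm6 in the IFNAR1 over control effect of cKO minus WT, from -0.14 to 0.058 for Ifitm2 in control over no antibody in cKO, from -0.11 to 0.0097 for Ifitm3 in cKO over WT, set 1 and from -0.12 to 0.072 for Ifitm2 in Mavs double KO over the cKO sets. The last ones were from -0.21 to 0.11 for Ifitm2 in Irf7 double KO over the cKO sets and from -0.075 to 0.067 for Ifitm3 in Irf7 double KO over the WT sets.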

Other observations

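Ifitm10, which lies outside the cluster of the 4 members, was detected above 1.21 CPM in peritoneal macrophages alone. It read 5.96, 2.41 and 2.19 CPM in WT and 8.86, 11.9 and 10.7 CPM in cKO libraries, without overlap, and missed the threshold (adjusted p = 0.122 for a log2 fold change of 1.65, SE 0.38 with edgeR's quasi-likelihood test). Ifitm7 was at 0 counts in 51 of 79 libraries.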
